A study of Mus musculus with 5 samples.

Results

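The Hox genes are a family of homeobox transcription factors that lie in 4 clusters, Hoxa, Hoxb, Hoxc and Hoxd. Every row of the deposited count table whose symbol was Hox followed by a cluster letter and a paralog number was taken, which gave 39 of 24527 genes. They were measured by bulk RNA-seq in prostate tumor (PCa) tissue, identified under the microscope, from 5 TripleTg mice, of which 3 were castrated and 2 were intact. Castration took place at 4 months of age, and tumors were collected at 8 months in either group. All 5 mice carried the same alleles. The transgene hHGFtg expresses human HGF ubiquitously, while H11 hMET/+, a human MET transgene, and Ctnnb1 L(Ex3)/+, which yields stabilized β-catenin, become active where PB-Cre4, a Cre recombinase under the probasin promoter, is expressed, namely in prostate epithelium. No sample without these alleles was used here, so the comparison is between castrated and intact mice of a single genotype, and each library came from a separate mouse.

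During development, Hox genes give cells their position along the body axis. Genes at the 3′ end of a cluster (low paralog numbers) are expressed towards the head, and genes at the 5′ end (high paralog numbers) are expressed towards the tail, where the urogenital tract forms. Adult tissues keep much of this pattern, in epithelium and in stroma. Hoxa13 and Hoxd13 are needed for the male accessory glands to form and branch, and Hoxb13 marks luminal cells of the prostate. Hox proteins bind DNA together with TALE homeodomain cofactors (Pbx, Meis and Pknox), their clusters are switched on by retinoic acid and Cdx factors, and Polycomb and Trithorax proteins hold them in a silent or an active state.

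The castrated libraries, replicates 1 to 3, held 28015507, 18951782 and 20492061 counts, and the intact libraries, replicates 1 and 2, held 21560355 and 22853501. The libraries stood apart in their markers before any Hox gene was considered. Tgm4, a secreted prostate protein, was at 1342 CPM (read counts scaled to library size by the trimmed mean of M-values) in intact replicate 2 and at most 0.417 CPM elsewhere. Pbsn, which encodes probasin, was at 5.19 CPM in intact replicate 2 and at most 0.452 CPM in the others, and Msmb was at 0 in all 5. The defining markers of secretory prostate were thus absent or nearly so in 4 of the 5 libraries, whereas the keratin gene Krt8 ranged from 659 to 1151 CPM. Castrated replicates 2 and 3 differed from the other libraries in a second way. The summed level of 9 adipocyte markers, of which Fabp4 was the most abundant by length-scaled level, was 1165 CPM in both, and 50.8 CPM in castrated replicate 1, 42.4 CPM in intact replicate 1 and 62.1 CPM in intact replicate 2.

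The 3 Hox genes with an unadjusted p under 0.05 in the comparison were Hoxd13, Hoxd10 and Hoxa9, so the 150 bases before the start sites of Hoxa9 and of the Hoxd genes from Hoxd10 to Hoxd13 are shown. Sequences are from RefSeq (GRCm38.p6, the same build as mm10), are written 5′ to 3′ on the strand of the gene and end at the base before the start that the deposited table gives. Capitals mark 4 promoter motifs on either strand. A TATA box was searched as TATAAA, and a CCAAT box by the letters of its name. A GC box, which the factor SP1 binds, was searched as GGGCGG. For the core of a site bound by TCF/LEF, the partners of β-catenin, the search used CTTTGA. Matches of different motifs do not overlap in the stretches shown.
Hoxd13 (chr2:74668075-74668224, plus strand): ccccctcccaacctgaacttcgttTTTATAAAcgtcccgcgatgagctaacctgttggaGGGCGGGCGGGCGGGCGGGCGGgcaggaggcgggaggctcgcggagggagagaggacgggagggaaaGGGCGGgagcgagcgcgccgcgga
Hoxd12 (chr2:74674863-74675012, plus strand): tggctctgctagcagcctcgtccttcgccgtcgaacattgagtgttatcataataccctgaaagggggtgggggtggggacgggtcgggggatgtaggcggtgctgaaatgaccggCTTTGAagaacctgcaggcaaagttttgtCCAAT
Hoxd11 (chr2:74679408-74679557, plus strand): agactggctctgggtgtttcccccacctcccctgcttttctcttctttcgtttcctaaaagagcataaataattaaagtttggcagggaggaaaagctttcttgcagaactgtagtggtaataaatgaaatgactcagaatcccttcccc
Hoxd10 (chr2:74691741-74691890, plus strand): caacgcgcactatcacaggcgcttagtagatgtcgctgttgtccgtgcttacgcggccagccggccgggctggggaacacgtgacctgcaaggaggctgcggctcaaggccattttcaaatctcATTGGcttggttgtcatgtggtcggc
Hoxa9 (chr6:52227371-52227520, minus strand): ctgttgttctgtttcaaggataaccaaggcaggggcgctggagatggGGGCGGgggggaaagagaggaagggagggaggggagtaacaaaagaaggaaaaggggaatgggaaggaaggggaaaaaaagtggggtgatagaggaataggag

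No motif of the 4 was in all 4 Hoxd stretches. Hoxd13 held a TATA box, which reads on both strands, and a run of overlapping GC boxes. Hoxd12 held a TCF/LEF core and a CCAAT box, Hoxd10 held a CCAAT box, and Hoxd11 held none of the 4. RefSeq windows were found for 22 of the 39 Hox genes, and over the 250 bases before the start a CCAAT box was in 13 of them, or 59.1%, against 33.8% of 32851 promoter windows of all genes. A GC box was in 9 of the 22, against 32.7% of all windows, and a TATA box in 3, against 12.4%. A TCF/LEF core was in 2 (Hoxd8 and Hoxd12), against 13.8%. The number of CG dinucleotides in the window had a median of 12 over the Hox genes and of 6 over all genes. It varied along the Hoxd cluster as well, with 31 in Hoxd13, 10 in Hoxd12, 2 in Hoxd11 and 20 in Hoxd10. These matches describe the letters in the windows and were not measured as binding.

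Levels along each cluster were compared per gene length, as TPM (read counts per kilobase, scaled to the same total in each library). The Hoxa cluster was the most abundant, and its genes from Hoxa7 to Hoxa13 had higher means than those from Hoxa2 to Hoxa6, without a steady climb from gene to gene. Hoxa13 had the highest mean TPM of all Hox genes (138 over the 5 libraries), ahead of Hoxa10 (57.0), Hoxa11 (47.3), Hoxa9 (43.3) and Hoxa7 (33.1), whereas Hoxa2 to Hoxa6, towards the 3′ end, lay between 0.951 TPM (Hoxa4) and 9.48 TPM (Hoxa5). In the Hoxd cluster, levels formed 2 peaks. Hoxd13 had a mean of 44.6 TPM and Hoxd8 one of 25.5 TPM, with a trough at Hoxd12 (2.01 TPM), and Hoxd1 and Hoxd3 were below 0.25 TPM on average. The Hoxb cluster was low and level from Hoxb2 to Hoxb8, with means between 2.92 and 12.5 TPM, and Hoxb13 at its 5′ end reached 38.1 TPM. Hoxa13 was the highest Hoxa gene in every library. The order of Hoxd13 and Hoxd8 was not shared, since Hoxd13 was above Hoxd8 in the castrated libraries and in intact replicate 2, and Hoxd8 was above Hoxd13 in intact replicate 1 (54.0 against 13.9 TPM). Hoxb13 at 6.23 TPM did not rise above Hoxb7 and Hoxb9 in that library. The genes of paralogs 9 to 13 made up 82.3%, 76.1% and 75.3% of all Hox TPM in the castrated libraries, taken in order of replicate, and 67.5% and 84.0% in the intact ones. The groups overlapped in this share.

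**Figure D1:**
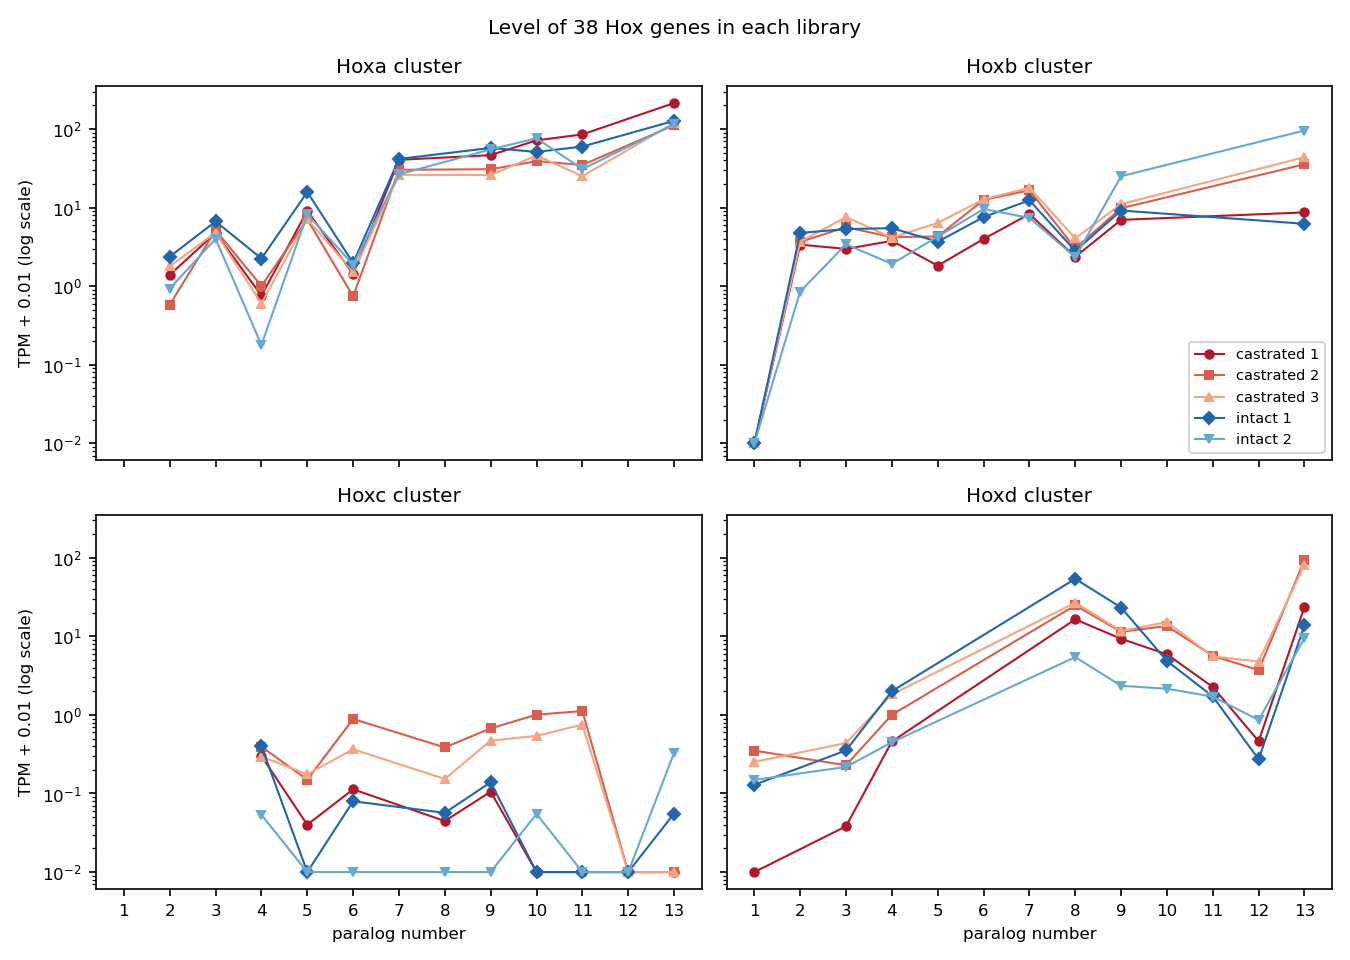
TPM (with 0.01 added, log scale) of each of 38 Hox genes against paralog number, in a panel per cluster, with a line per library. Hoxa13 is the highest Hoxa gene in every library, Hoxd has peaks at Hoxd8 and Hoxd13, and Hoxc stays below 1.2 TPM throughout.

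The Hoxc cluster was almost silent. Its 9 genes together held 13, 59 and 39 counts in the castrated libraries, and 12 and 11 counts in the intact ones. The gene with the highest mean TPM of the cluster, Hoxc11, a posterior Hox factor, was at 0 TPM in castrated replicate 1 and both intact libraries, and at 1.11 and 0.742 TPM in castrated replicates 2 and 3. No Hoxc gene exceeded 0.802 CPM in any library, and Hoxc12 and Hoxb1 had 0 counts in all 5. A count of 0 allows up to 3 counts, which is between 0.107 and 0.158 CPM in these libraries and covers counting error only. Castrated replicates 2 and 3 held the most Hoxc counts, and none of the 9 genes passed the filter on low counts of the comparison. Without a filter 8 of them entered the test, and 0 of the 8 had an unadjusted p under 0.05.

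The question of the comparison is how the transcriptome of these tumors differs after castration. Genes with more than 1 CPM in at least 2 libraries were tested with edgeR's quasi-likelihood test. This left 26 Hox genes (10 of 11 in Hoxa, 9 of 10 in Hoxb, 0 of 9 in Hoxc and 7 of 9 in Hoxd), of which 20 exceeded 1 CPM in all 5 libraries and 1 passed through the intact libraries alone. The other 13 were Hoxa4, Hoxb1, Hoxd1, Hoxd3 and the Hoxc genes, at no more than 1.38 CPM in any library. No Hox gene passed an adjusted p of 0.05 with an absolute log2 fold change above 1, and neither did any of the 14612 genes tested (0%). The smallest adjusted p was 0.320 both among the Hox genes and among all genes.

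At an unadjusted p under 0.05, 2 of 26 Hox genes were higher in castrated tumors (Hoxd13 and Hoxd10), or 7.69%, against 8.29% of all genes tested, and 1 was lower (Hoxa9), or 3.85%, against 5.93% of all genes tested. Every castrated library lay above both intact libraries for 3 Hox genes (Hoxd10, Hoxd11 and Hoxd13), against 17.0% of all genes, and below both for 4 (Hoxa5, Hoxa6 and Hoxa9 among them), against 16.1% of all genes. Each of these Hox shares was at or below the share over all genes. The count on the higher side rested on single libraries. It was 4 without castrated replicate 1 (Hoxd10 to Hoxd13), 4 without intact replicate 1 (Hoxb2, Hoxd8, Hoxd9 and Hoxd10), 1 without castrated replicate 2 or 3 (Hoxd13) and 0 without intact replicate 2. On the lower side, it was 2 without castrated replicate 1 (Hoxa9 among them) or intact replicate 2 (Hoxd8 and Hoxd9), 1 without intact replicate 1 (Hoxb9) and 0 without castrated replicate 2 or 3. Both sides together came to 6 of 26 Hox genes (23.1%) without castrated replicate 1, against 15.9% of all genes tested without it, and to 5 of 25 against 22.0% of all genes without intact replicate 1. They came to 2 of 25 against 13.5% without intact replicate 2, to 1 of 26 against 7.02% without castrated replicate 2, and to 1 of 26 against 6.53% without castrated replicate 3. Of these 5 fits, the Hox share was above that of all genes only in the one without castrated replicate 1. The median log2 fold change (castrated over intact) of the 26 genes was -0.14, beside -0.03 over all genes tested. By cluster, in Hoxa 2 genes had a higher and 8 a lower mean in castrated tumors (median -0.46), in Hoxb 6 were higher and 3 lower (median 0.08), and in Hoxd 4 were higher and 3 lower (median 1.25). These counts moved with single libraries. Without intact replicate 1 all 7 Hoxd genes had a higher mean, without castrated replicate 1 all 10 Hoxa genes a lower one, and without castrated replicate 3 the Hoxb genes were 3 higher and 6 lower. Whether the clusters differed was not tested. DESeq2 and edgeR's likelihood ratio test each called 1 Hox gene, Hoxd13, with adjusted p-values of 0.00774 and 0.0385, and called 6.77% and 2.53% of all genes tested. Over all alternatives run, the adjusted p of Hoxd13 lay between 0.00774 and 0.767. In bulk tissue, fewer cells of a type and less RNA per cell cannot be told apart. With 3 and 2 mice, the p-values set the difference between groups against the spread between these tumors.

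**Figure D2:**
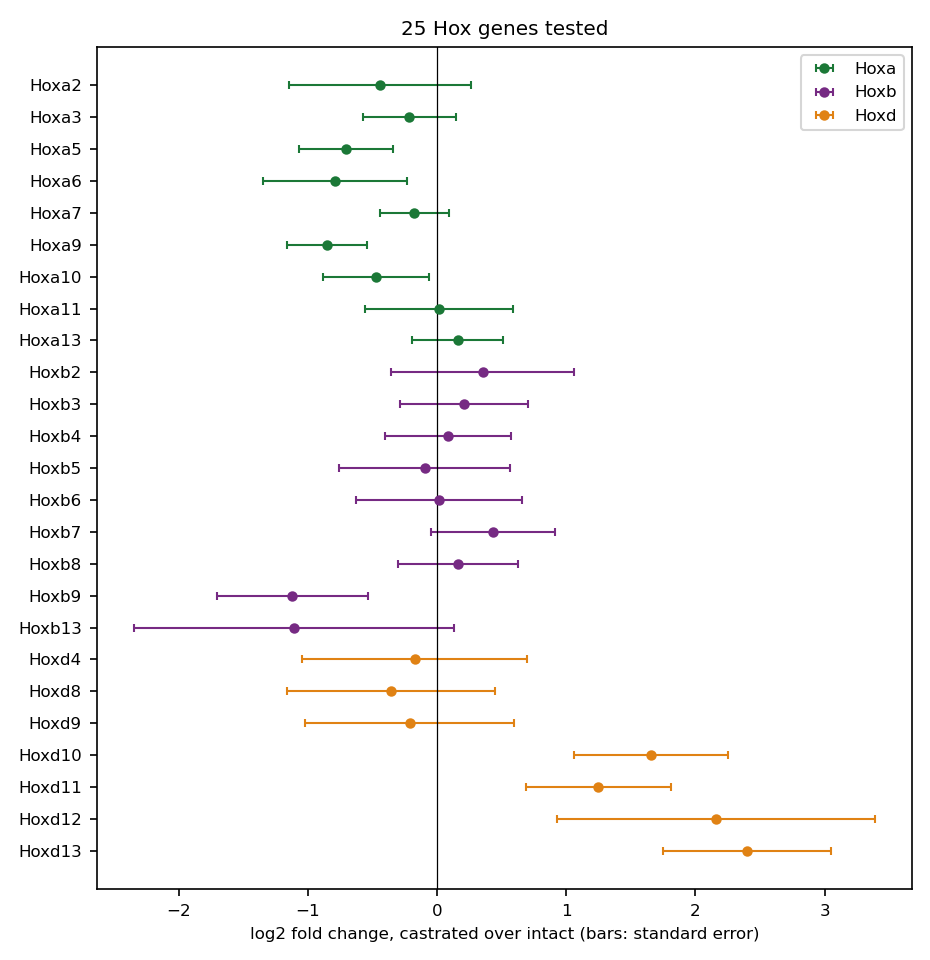
Log2 fold change (castrated over intact, x axis) with its standard error for 25 Hox genes tested, ordered by cluster and paralog number. Hoxd10 to Hoxd13 lie between 1.25 and 2.40, and the 3 Hoxd genes of lower paralog number lie between -0.36 and -0.17, each nearer to 0 than its standard error, and the signs of these 3 turn without intact replicate 1.

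The 4 genes at the 5′ end of Hoxd had higher means in castrated tumors, and in each of them castrated replicates 2 and 3 were the highest of the 5 libraries. Hoxd13 (chr2:74668225-74671603, mm10), which patterns limbs, genitalia and accessory glands, was at 25.9, 102 and 90.5 CPM in the castrated libraries, and at 14.4 and 13.2 CPM in the intact ones. The groups did not overlap, and castrated replicate 1 lay nearer to the intact libraries than to the other castrated ones. The group means were 72.7 ± 40.9 CPM (SD, n = 3) and 13.8 ± 0.866 CPM (SD, n = 2), and the log2 fold change was 2.40 (SE 0.65, adjusted p = 0.320 by edgeR's quasi-likelihood test). Leaving out each library in turn gave log2 fold changes from 2.09 to 2.80.

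Hoxd10 (chr2:74691891-74695106), a posterior patterning factor, was likewise lowest in castrated replicate 1 within its group, with 4.62, 10.5 and 12.1 CPM in the castrated libraries and 3.62 and 2.13 CPM in the intact ones. The groups did not overlap here either, and the gap between castrated replicate 1 and intact replicate 1 was small. The means were 9.08 ± 3.94 CPM (SD, n = 3) and 2.87 ± 1.05 CPM (SD, n = 2), and the log2 fold change was 1.66 (SE 0.60, adjusted p = 0.340 by edgeR's quasi-likelihood test). Hoxd11, which acts in limb and kidney patterning, was at 4.03, 9.99 and 10.05 CPM in castrated and at 2.90 and 3.84 CPM in intact libraries, so that castrated replicate 1 stood only just above intact replicate 2. Hoxd12 was at 0.487, 3.95 and 5.19 CPM in castrated and at 0.268 and 1.16 CPM in intact libraries, and its groups overlapped. Their log2 fold changes were 1.25 (SE 0.56) and 2.16 (SE 1.23), with adjusted p-values of 0.384 and 0.465 by edgeR's quasi-likelihood test.

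The next genes of the cluster towards its 3′ end did not follow this order. Hoxd8, an anterior neighbor of these genes in the cluster, was at 15.1, 22.5 and 24.9 CPM in castrated libraries, which lay between the 47.0 CPM of intact replicate 1 and the 6.30 CPM of intact replicate 2. Hoxd9 did likewise, at 8.27, 10.1 and 10.5 CPM in castrated libraries and 19.7 and 2.64 CPM in the intact ones. Both genes thus differed between the intact mice by more than among the castrated mice, with a ratio of 7.46 for Hoxd8. Their log2 fold changes of -0.36 and -0.21 had no stable sign, and were 1.74 and 1.89 without intact replicate 1, 0.19 and 0.37 with limma voom, 0.30 and 0.38 with log2(TPM + 1) and 0.08 and 0.32 with the replicate block. The summed TPM of Hoxd10 to Hoxd13 over that of Hoxd8 and Hoxd9 was 1.26, 3.23 and 2.79 in castrated libraries and 0.268 and 1.83 in intact ones, so the groups overlapped in this ratio.

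**Figure D3:**
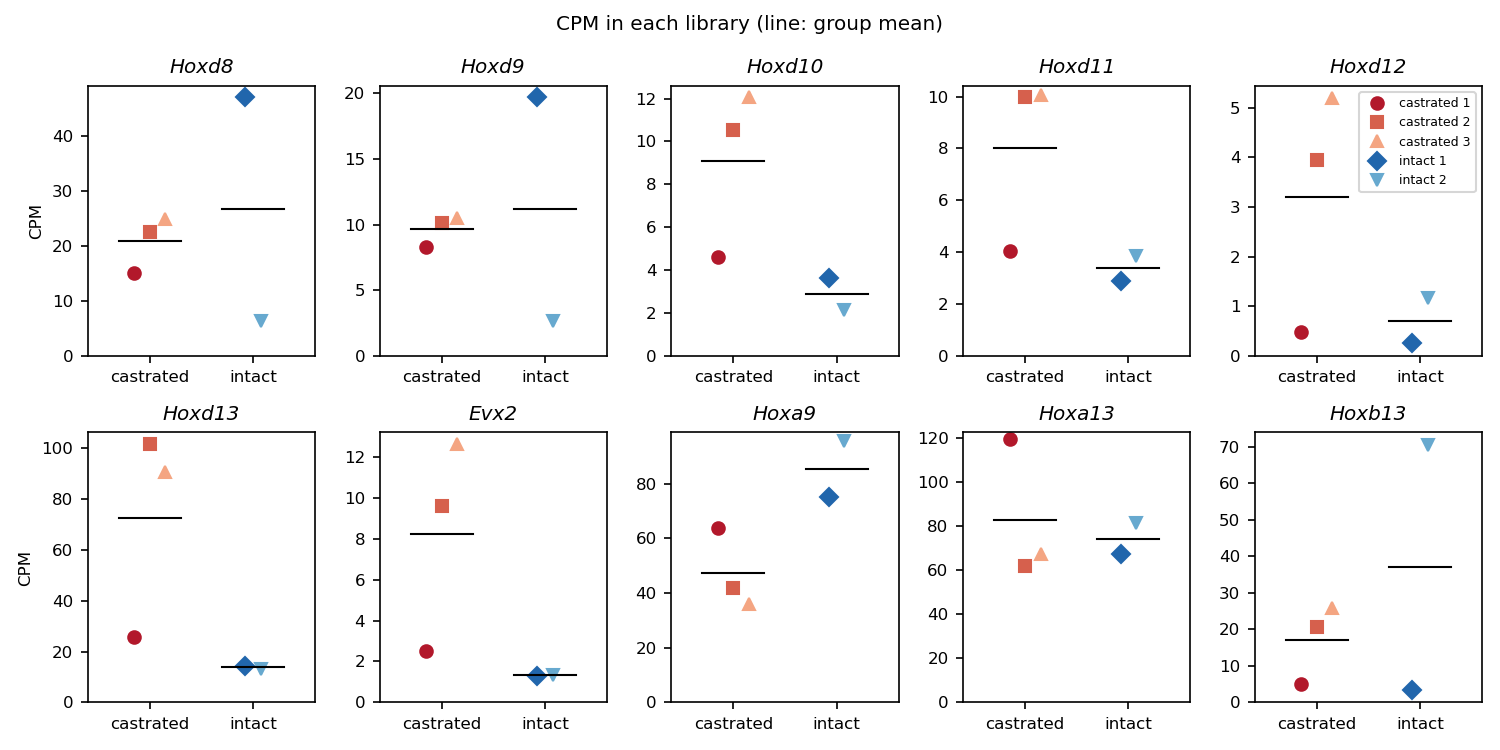
CPM (y axis, from 0) of 10 genes in each of the 3 castrated and 2 intact libraries, with a line at each group mean. Hoxd10, Hoxd11, Hoxd13 and Evx2 separate the groups with castrated replicate 1 lowest of its group. Hoxd8 and Hoxd9 are spread further in the intact group than in the castrated group, and Hoxb13 is highest in intact replicate 2 (70.5 CPM).

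The genes on either side of the cluster were compared to see how far the pattern reached. Evx2, a homeobox gene that lies 8.67 kb beyond Hoxd13 and shares enhancers with the 5′ Hoxd genes, was at 2.503, 9.62 and 12.6 CPM in castrated libraries and at 1.29 and 1.34 CPM in intact ones. Like Hoxd13, it was lowest in castrated replicate 1 within its group, the groups did not overlap, and it had a log2 fold change of 2.64 (SE 0.82, adjusted p = 0.323 by edgeR's quasi-likelihood test). Lnpk, a gene for an endoplasmic reticulum protein 89.3 kb beyond Hoxd13, had a log2 fold change of -0.15 (SE 0.30). Mtx2, a mitochondrial import gene 60.7 kb beyond the other end of the cluster, had one of -0.37 (SE 0.18), with every castrated library below both intact libraries.

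Most of the markers of stromal and fat cells counted here also had higher means in castrated tumors. The summed level of 9 smooth muscle markers, of which Tagln was the most abundant by mean TPM, was 428, 770 and 728 CPM in castrated libraries and 252 and 164 CPM in intact ones, so that castrated replicate 1 lay between the other castrated libraries and the intact ones, as for Hoxd13. All 9 had higher means in castrated tumors and 8 had an unadjusted p under 0.05, beside 8.29% of all genes on the higher side. Dcn was the most abundant of 7 fibroblast markers by mean TPM. Their sums were 3527, 4930 and 6902 CPM in castrated and 3047 and 1804 CPM in intact libraries. Of the 7, 6 had a higher mean, 5 of them at an unadjusted p under 0.05. Col1a1 had a lower mean, with a log2 fold change of -0.36 (SE 0.47), and that of Col1a2 was 0.01 (SE 0.40). All 9 adipocyte markers had higher means, 6 of them at an unadjusted p under 0.05. Of the 9, 6 exceeded 1 CPM in castrated libraries alone (5 of them at an unadjusted p under 0.05), so that they could be tested through the group where they were high, and these counts are a description. Among these defining markers, Adipoq was at 0.522, 68.5 and 68.1 CPM in castrated libraries and at 0 and 0.0926 CPM in intact ones. All 7 macrophage markers had higher means as well, 6 of them at an unadjusted p under 0.05 and all 7 with groups that did not overlap (17.0% of all genes did so on the higher side), with sums of 2413, 6918 and 2771 CPM against 1006 and 1554 CPM. The part of these cell types in the level of the Hoxd genes was not tested.

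In the Hoxa cluster, most genes had lower means in castrated tumors, and the gene at its 5′ end did not. Hoxa9 (chr6:52223097-52227370), known for its role in blood progenitors and in posterior patterning, was at 63.8, 41.9 and 36.1 CPM in castrated libraries and at 75.1 and 95.8 CPM in intact ones. The groups did not overlap, and castrated replicate 1 was again the closest to the intact libraries. The means were 47.3 ± 14.6 CPM (SD, n = 3) and 85.4 ± 14.6 CPM (SD, n = 2), with a log2 fold change of -0.85 (SE 0.31, adjusted p = 0.340 by edgeR's quasi-likelihood test). Hoxa13 (chr6:52258853-52260880), the posterior factor of the cluster, was at 120 CPM in castrated replicate 1 and at 61.8 and 67.4 CPM in the other castrated libraries, and at 67.4 and 81.2 CPM in intact ones. The groups overlapped, with means of 82.9 ± 31.8 CPM (SD, n = 3) and 74.3 ± 9.77 CPM (SD, n = 2). Its log2 fold change of 0.16 (SE 0.35, adjusted p = 0.863 by edgeR's quasi-likelihood test) rested on castrated replicate 1, and without that library it was -0.20.

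Between these 2 genes, Hoxa10 and Hoxa11, which pattern the urogenital tract, overlapped between groups. Hoxa10 was at 95.9, 51.6 and 62.4 CPM in castrated and 64.9 and 129 CPM in intact libraries, and Hoxa11 at 82.96, 33.6 and 24.7 CPM in castrated and 55.3 and 38.1 CPM in intact ones. Further towards the 3′ end, Hoxa5 and Hoxa6 were lower in every castrated library than in both intact libraries, with log2 fold changes of -0.71 (SE 0.36) and -0.79 (SE 0.56). That holds for CPM, and in TPM Hoxa5 overlapped, with 9.09 TPM in castrated replicate 1 and 8.22 TPM in intact replicate 2. The table's gene models overlap in this region. The Hoxa3 model spans Hoxa4, Hoxa5 and Hoxa6 on the same strand, and the span of the antisense gene Hoxaas3 holds Hoxa5 and Hoxa6. The table gives the span of a model and not its exons, so that it was not tested whether they share exon bases, and the counts of these genes are uncertain to that extent. Hoxa11 shares 568 bases with the antisense gene Hoxa11os. Whether reads were counted by strand is not given in the sources used here, so the reads of that pair cannot be told apart.

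In the Hoxb cluster, the 2 posterior genes stood apart from the rest. Hoxb13 (chr11:96194316-96196610), a marker of prostate luminal cells, was at 5.04, 20.5 and 25.8 CPM in castrated libraries, and at 3.44 and 70.5 CPM in intact replicates 1 and 2. The intact pair enclosed all castrated values and differed by a factor of 20.5, from 77 to 1522 counts. The means were 17.1 ± 10.8 CPM (SD, n = 3) and 37.0 ± 47.4 CPM (SD, n = 2). The log2 fold change was -1.11 (SE 1.24, adjusted p = 0.712 by edgeR's quasi-likelihood test), and it was 2.31 without intact replicate 2. That library also held nearly all counts of Tgm4 given above, and the part of secretory cells in the level of Hoxb13 was not tested.

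Hoxb9, the other posterior member, was likewise highest in intact replicate 2, with 36.4 CPM against 10.002 CPM in intact replicate 1 and 7.997, 11.2 and 12.9 CPM in castrated libraries. From Hoxb2 to Hoxb8, the log2 fold changes of the 7 genes lay between -0.10 and 0.43, each smaller than its standard error. None of the 9 Hoxb genes tested separated the groups. The span of the antisense gene Hoxb5os holds Hoxb5 and Hoxb6, and that of the antisense gene Hoxb3os overlaps Hoxb2 and Hoxb3. The counts of these Hoxb genes are uncertain in the way given above for Hoxa3.

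The clusters took different shares of the Hox transcripts in each tumor, whereas their sum stayed close. The summed TPM of all 39 genes was 579, 517 and 522 in castrated libraries and 527 and 495 in intact ones. Hoxa made up 82.5%, 50.7% and 49.7% of it in castrated libraries and 69.9% and 64.8% in intact ones. Hoxd made up 10.1%, 29.9% and 28.4% in castrated and 19.1% and 4.60% in intact libraries, and Hoxb 7.30%, 18.5% and 21.4% in castrated and 10.9% and 30.5% in intact ones. The groups overlapped in each of these shares.

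Paralog group 13 varied in its make-up more than in its sum. Its summed TPM was 247, 242 and 246 in castrated libraries, and 147 and 221 in intact ones, so that the castrated libraries lay close together and above both intact ones. In castrated replicate 1, most of it came from Hoxa13, and the TPM of Hoxd13 was 0.110 times that of Hoxa13. In castrated replicates 2 and 3, this ratio was 0.839 and 0.685, and in intact replicates 1 and 2 it was 0.109 and 0.0826. Castrated replicate 1 therefore had the ratio of the intact libraries. In intact replicate 2, Hoxb13 took the place that Hoxd13 held in castrated replicates 2 and 3, with 95.9 TPM of Hoxb13 and 9.52 TPM of Hoxd13.

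**Figure D4:**
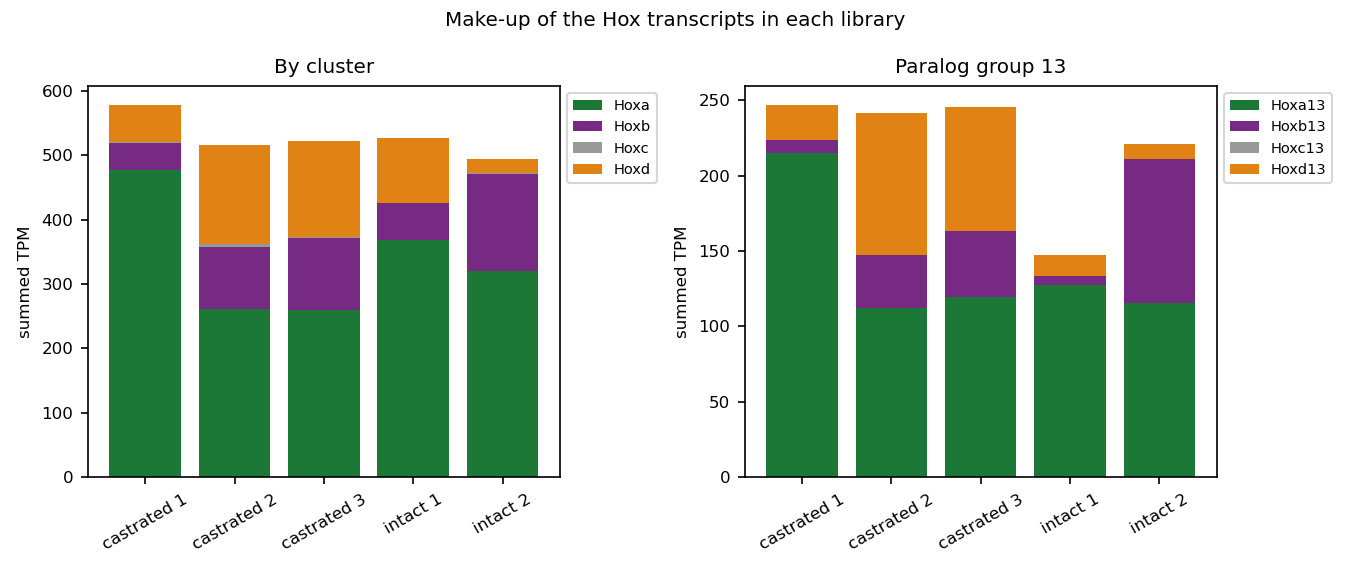
Summed TPM in each library (bars from 0), split by cluster on the left and by gene of paralog group 13 on the right. The totals on the left lie between 495 and 579 TPM, and on the right Hoxd13 is large in castrated replicates 2 and 3 and Hoxb13 in intact replicate 2.

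Within the castrated group, the Hox genes were spread more widely between mice than the genes tested as a whole. The highest castrated CPM was over 2 times the lowest for 14 of the 26 Hox genes tested, and for 28.1% of all genes tested, and the median of this ratio was 2.14 over the Hox genes and 1.49 over all genes. In the intact group, 8 of 26 Hox genes and 31.6% of all genes differed by over 2 times. The widest castrated spreads were those of Hoxd12 (a ratio of 10.7), Hoxb13 (5.12), Hoxd4 (4.09) and Hoxd13 (3.93). The Hoxd4 model lies within that of Hoxd3 on the same strand and shares all 7182 bases of its span with it, so that its counts are uncertain in the way given above for Hoxa3. In each of these 4 genes castrated replicate 1 was the lowest of its group, whereas in Hoxa9, Hoxa10, Hoxa11 and Hoxa13 it was the highest. These values are descriptions and no test of the spread was made.

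**Figure D5:**
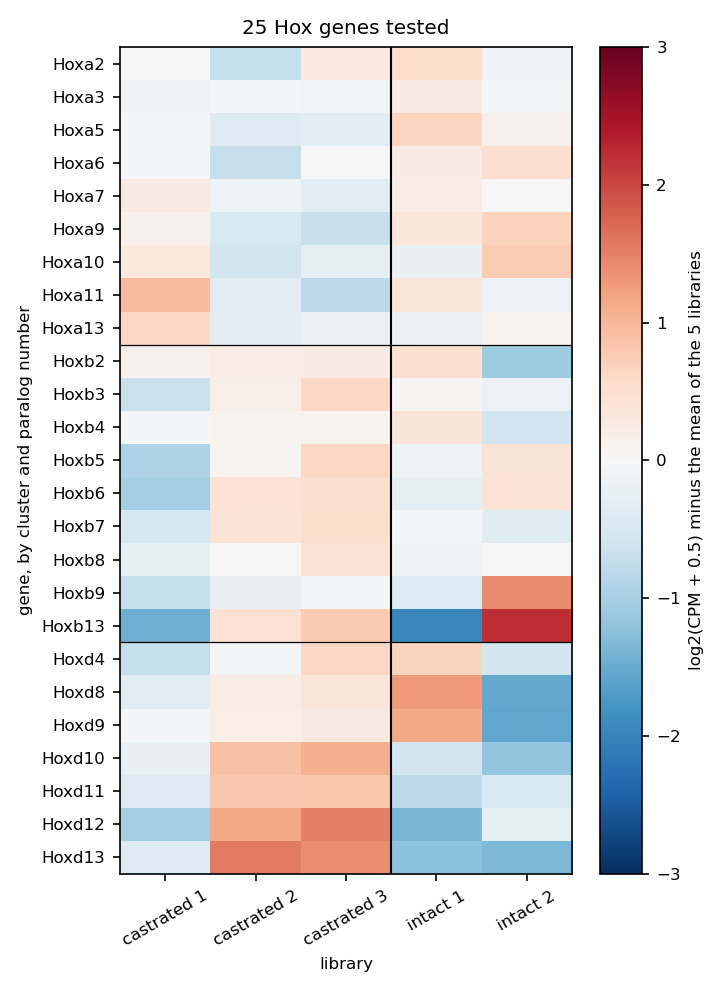
Log2(CPM + 0.5) of 25 Hox genes tested in each library, relative to the mean of the 5 libraries (color, red above and blue below), with lines between clusters and groups. The values run from -1.96 to 2.21, the lower left block shows Hoxd10 to Hoxd13 high in castrated replicates 2 and 3, and Hoxb13 is the reddest cell in intact replicate 2.

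Of the neighbors of the Hoxa cluster, Evx1 and Evx1os divided the libraries in another way than castration. Evx1, a homeobox gene 52.6 kb beyond Hoxa13, was at 82.7, 26.1 and 10.9 CPM in castrated libraries and at 64.4 and 14.9 CPM in intact ones. Evx1os, an antisense gene whose model partly overlaps that of Evx1, was at 150, 21.5 and 17.3 CPM in castrated and 59.5 and 23.2 CPM in intact libraries. Castrated replicate 1 and intact replicate 1 thus had the highest levels of both genes and of Hoxa11. Gdf11, a secreted factor of the TGF-β family that sets posterior Hox expression in the embryo, was highest in the same libraries, at 217 and 123 CPM, against 19.4 to 24.6 CPM in the other 3. On the other side of the cluster, Skap2, a signaling adaptor gene, ranged from 86.2 to 151 CPM, and Snx10, a sorting nexin gene, was highest in intact replicate 2 (128 CPM) and at 48.4 to 61.9 CPM elsewhere.

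Noncoding transcripts of the clusters were counted as well. Of 10 in the table, 4 passed the filter, of which 1 had a higher and 3 a lower mean in castrated tumors, and none had an unadjusted p under 0.05. The most abundant by mean TPM was Hoxa11os, at 31.9, 19.2 and 22.3 CPM in castrated and 23.8 and 56.5 CPM in intact libraries. Hotairm1, which lies at the 3′ end of Hoxa, was lower in every castrated library, at 1.56, 1.496 and 0.534 CPM against 4.29 and 2.18 CPM, with a log2 fold change of -1.42 (SE 0.67, adjusted p = 0.398 by edgeR's quasi-likelihood test). Hottip, a transcript that lies 1.90 kb from Hoxa13, was at 19.9, 3.95 and 5.34 CPM in castrated and 7.50 and 8.11 CPM in intact libraries, so that castrated replicate 1 was the highest, as it was for Hoxa13. Hotair, in the silent Hoxc cluster, was at 0.0485 CPM in castrated replicate 3 and at 0 elsewhere.

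The TALE cofactors mostly had higher means in castrated tumors, although none passed the adjusted threshold. Of 9 genes, 8 were tested, 7 had a higher and 1 a lower mean, and 3 had an unadjusted p under 0.05, all of them higher (Meis1, Meis3 and Pknox2), beside 8.29% of all genes tested on that side. Their median log2 fold change was 0.80, beside -0.03 over all genes. Meis1, a cofactor that stabilizes Hox binding, was at 33.3, 41.7 and 67.04 CPM in castrated libraries and at 14.8 and 16.2 CPM in intact ones. These groups did not overlap, and the log2 fold change was 1.61 (SE 0.37, adjusted p = 0.320 by edgeR's quasi-likelihood test). Meis3 had a log2 fold change of 0.91 (SE 0.30, adjusted p = 0.329). Pbx2 had a log2 fold change of -0.01 (SE 0.18). Most smooth muscle and fibroblast markers had higher means too, and the part of those cells in this list was not tested.

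Among 13 upstream regulators, 10 were tested, 7 had a higher and 3 a lower mean, and 2 had an unadjusted p under 0.05, both higher, beside the same 8.29% of all genes. Aldh1a3, which makes retinoic acid, was at 158, 271 and 355 CPM in castrated libraries and at 67.9 and 91.2 CPM in intact ones, with a log2 fold change of 1.72 (SE 0.41, adjusted p = 0.320 by edgeR's quasi-likelihood test). Rarb, a retinoic acid receptor that is itself induced by retinoic acid, was at 23.4, 35.4 and 36.7 CPM in castrated and at 16.2 and 9.87 CPM in intact libraries, with a log2 fold change of 1.29 (SE 0.36, adjusted p = 0.320). Both separated the groups. Other genes of the retinoic acid pathway in the list had log2 fold changes of 0.06 (SE 0.47) for the synthesis enzyme Aldh1a2, -0.25 (SE 0.37) for the receptor Rarg and -0.82 (SE 1.19) for Cyp26a1, which breaks retinoic acid down. They were 0.97 (SE 0.72) for Cyp26b1, the other such enzyme of the list, 0.64 (SE 1.23) for the synthesis enzyme Aldh1a1 and 0.29 (SE 0.23) for the receptor Rara. The part of smooth muscle and fibroblast cells, most of whose markers also had higher means in castrated tumors, was not tested. Aldh1a1, the most abundant of the list by mean TPM, varied from 23.1 to 507 CPM within the castrated group, and Cdx1, Cdx2 and Cdx4 did not exceed 0.509 CPM in any library.

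The chromatin regulators that hold Hox clusters silent or active were all expressed. Of 21 Polycomb genes, 9 had a higher and 12 a lower mean in castrated tumors, and 3 had an unadjusted p under 0.05, all lower (Ezh2, Rbbp7 and Phf19), beside 5.93% of all genes tested on that side, and the median log2 fold change was -0.04. Ezh2, the methyltransferase of Polycomb repressive complex 2, was at 29.8, 25.97 and 26.8 CPM in castrated libraries and at 43.8 and 57.5 CPM in intact ones, with a log2 fold change of -0.88 (SE 0.22, adjusted p = 0.320 by edgeR's quasi-likelihood test). Rbbp7, a histone-binding subunit, had one of -0.85 (SE 0.30, adjusted p = 0.333), and Rbbp4, its close relative, one of 0.05 (SE 0.35). Of 14 Trithorax genes and partners, 4 had a higher and 10 a lower mean, and 1 of the 14 had an unadjusted p under 0.05, a share near the 5.93% of all genes. It was the histone methyltransferase gene Kmt2b, with a log2 fold change of -0.71 (SE 0.23, adjusted p = 0.328). Kdm6b, which removes the mark that Ezh2 sets, had one of -0.60 (SE 0.25, adjusted p = 0.361). Aff4 and Wdr5, the most abundant of these by mean TPM, had log2 fold changes of -0.31 (SE 0.22) and -0.33 (SE 0.19). Every castrated library lay below both intact libraries for 6 of the 14 Trithorax genes and above both for 1. Among the 21 Polycomb genes these counts were 6 and 0. Over all genes tested the shares were 16.1% below and 17.0% above, and no test of these shares was made.

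Other factors of regional identity also mostly had higher means in castrated tumors. Of 23, 17 were tested, 12 had a higher and 5 a lower mean, and 3 had an unadjusted p under 0.05 (Tbx4, Evx2 and Six2), all of them higher, beside 8.29% of all genes tested. The list had a median log2 fold change of 0.53. Of the 17, 4 (Tbx4, Tbx5, Emx2 and Six2) exceeded 1 CPM in castrated libraries alone and so had to be higher there to be tested, and their counts and the median are a description. Tbx4 and Six2 are 2 of the 3 genes with an unadjusted p under 0.05. The part of smooth muscle and fibroblast cells in this list was not tested. Tbx4, a T-box factor of the hindlimb and of lung mesenchyme, was at 11.4, 2.89 and 3.59 CPM in castrated libraries and at 0.268 and 0.648 CPM in intact ones, with a log2 fold change of 3.69 (SE 0.96, adjusted p = 0.320 by edgeR's quasi-likelihood test). Unlike Hoxd13, it was highest in castrated replicate 1. Tbx3, the most abundant member by mean TPM, was at 453, 194 and 192 CPM in castrated and 288 and 765 CPM in intact libraries, and Nr2f2, a nuclear receptor of stromal cells, had a log2 fold change of -0.01 (SE 0.38).

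Markers of other cell types that the tissue could hold were counted beside these lists. The 7 epithelial markers had 1 higher and 6 lower means with none at an unadjusted p under 0.05, and summed to 3245, 3027 and 3930 CPM in castrated and 4511 and 3275 CPM in intact libraries. Of 6 endothelial markers, 5 had a higher mean and 2 an unadjusted p under 0.05 (Kdr and Tek). Over all genes tested, 8.29% passed that threshold on the higher side. All 3 B cell markers and all 5 T cell markers had higher means, with 2 (Cd79a and Ms4a1) and 0 at an unadjusted p under 0.05. Cd79a and Cd5 exceeded 1 CPM in castrated libraries alone. Of 3 Schwann cell markers tested, all had a higher mean, none at an unadjusted p under 0.05. Of 3 urothelial markers tested 2 had higher means, 1 of them (Upk1a) at an unadjusted p under 0.05, beside the same 8.29%. The 5 seminal vesicle markers summed to 7.23 CPM in intact replicate 2 and to at most 0.174 CPM elsewhere, and the 5 skeletal muscle markers to at most 2.36 CPM in any library.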

How the data were processed

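The authors sequenced ribosomal RNA-depleted total RNA, used Trimmomatic 0.39 for trimming, STAR 2.7.9 for alignment to mm10 and HTSeq 2.0.2 for counting, and deposited raw gene counts that are not normalized (tool versions per the submitters' processing notes). CPM used TMM factors, and TPM used the deposited gene lengths. Genes reaching more than 1 CPM in 2 or more libraries were tested on their counts with edgeR 4.0.16 (quasi-likelihood F-test, Benjamini-Hochberg adjustment over 14612 genes, R 4.3.3), with DESeq2 1.42.0, limma 3.58.1, other scalings and filters, a replicate block and left-out libraries as alternatives. The common dispersion was 0.238. The fit was tested on simulated data. No pair of samples within a group was a duplicate. The Hox genes and other lists were chosen with earlier results of these data known. Full values were given by rule for the Hox gene with the highest mean TPM in each cluster, tested members of paralog group 13 and Hox genes with an unadjusted p under 0.05, and from the other lists for up to 4 genes, the 2 with the highest mean TPM and the 2 with the smallest p. Values of other genes were added after they were seen. Some genes that the lists and counts include are not reported here. Coordinates count from 1.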

Additional observations from a re-analysis of the deposited data

How the results depend on the processing

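The number of Hox genes called was 0 in edgeR's quasi-likelihood test (3 at an unadjusted p under 0.05) and 1 under DESeq2, as under the likelihood ratio test (Hoxd13 in both). It was 0 with limma voom, RLE factors, library size only, no filter, filterByExpr and log2(TPM + 1), and without any single library. The number of Hox genes with an unadjusted p under 0.05 was 2 on the higher side and became 1 with limma voom, and it ranged from 0 to 4 when each library was left out. On the lower side it was 1, became 2 with the likelihood ratio test and 0 with log2(TPM + 1), and ranged from 0 to 2 when each library was left out. At an unadjusted p under 0.05, Hoxd13 did not pass when either intact replicate was left out, Hoxd10 not without intact replicate 2 or castrated replicate 2 or 3, and Hoxa9 not without any single library other than castrated replicate 1. The lone intact library is then assumed to vary as the castrated ones do. The log2 fold change of Hoxb13 turned to 2.31 without intact replicate 2 (range -2.02 to 2.31) and that of Hoxa13 to -0.20 without castrated replicate 1 (range -0.20 to 0.34). Hoxd8 and Hoxd9 turned to 1.74 and 1.89 without intact replicate 1, to 0.19 and 0.37 with limma voom, to 0.30 and 0.38 with log2(TPM + 1) and to 0.08 and 0.32 with the replicate block. The cause was not tested. Hoxd13, Hoxd10 and Hoxa9 kept their direction in every alternative run. The median over the Hox genes lay between -0.22 and 0.13 and was near 0 throughout. With log2(TPM + 1) as input the median of all genes moved to 0.12, so that directions in that alternative are relative to this shift. The replicate numbers of the labels belong to different mice, and deviations of same-numbered samples correlated by 0.17 and -0.04. With the number as a replicate block, 0 Hox genes were called, 1 was higher and 0 were lower at an unadjusted p under 0.05, 940 of all genes passed it in place of 2079, and the log2 fold change of Hoxd13 was 1.90. Depth limits the Hoxc genes, whose counts did not exceed 15 in any library.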
